A study of Mus musculus with 28 samples.

Results

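The serpins of mouse liver were followed through a diet that induces nonalcoholic steatohepatitis (NASH, in which a fatty liver becomes inflamed and fibrotic) and through treatment with 2 agonists of FXR, a nuclear receptor for bile acids. Members were all rows of the deposited gene tables whose symbol follows the mouse serpin nomenclature of clades A to I, together with Serpina4-ps1. They came to 65 of 47719 rows and 64 symbols, because Serpinb10 stood on 2 identifiers. Liver RNA of 28 male C57BL/6 mice had been sequenced in 7 groups of 4, with the mice about 6 weeks old at the start. Lean controls were fed a diet in which fat supplied 10% of the calories, without fructose or cholesterol. How long they ate it and whether they were dosed is not recorded here. A diet effect below therefore means NASH diet with vehicle against lean control, and diet, dosing and duration cannot be told apart in it. The other 6 groups ate the NASH diet, with 40% of calories from fat and with 22% fructose and 2% cholesterol by weight, for 26 weeks and were then dosed daily by mouth for 4 weeks. One treated group had 25 mg/kg of obeticholic acid (OCA, which is derived from a bile acid). The remaining 3 treated groups had tropifexor (LJN452, which is not built on a bile acid) at a low, mid or high dose. The labels list 0.1, 0.3 and 0.9 mg/kg for all tropifexor samples without saying which group had which, and the doses were read in rising order. A separate vehicle group on the NASH diet served each compound. The sample titles name these groups as vehicle and were followed, since their treatment entries carry the drug's name.

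Serpins are a family of proteins built on one fold. An inhibitory serpin offers an exposed reactive loop as bait, and when a protease cuts the loop the serpin changes shape and traps the enzyme for good. The liver secretes most serpins of the blood, which hold clotting, fibrinolysis, complement and leukocyte elastases in check, while some members carry hormones or help collagen to fold, and clade B members stay inside cells.

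The values are from the authors' deposited Cuffdiff tables, each of which compares 2 groups. A table gives a gene 1 FPKM for each group and none for a single animal, so whether the animals of 2 groups overlap cannot be read from them. FPKM are fragments counted, scaled by transcript length and library size, and the scale of a group differed between tables by a constant. A fold change is given with a standard error (SE) derived from the deposited p. A gene was called when Cuffdiff had tested it and its deposited adjusted p was under 0.05. Of the 65 serpins, 27 were tested in all 10 tables, 4 in some and 34 in none. Of the 34, 32 stayed at or below 0.239 FPKM in every group, and 6 of them were listed at 0 throughout. The other two, Serpina3k and Serpina3m, are abundant, but their test was marked as failed in every table, so that only their FPKM can be given. Albumin (Alb), the defining transcript of hepatocytes, lay between 30921 and 57975 FPKM in every group. In bulk tissue, fewer cells of a type and less RNA per cell cannot be told apart.

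The Serpina1 cluster on chromosome 12 encodes the mouse alpha-1-antitrypsins, inhibitors of leukocyte elastase. Its sequences are shown because Serpina1e fell far more than its near-identical neighbours under both drugs, so that the reads that tell the paralogs apart matter. The paralogs differ more in the reactive loop than over the whole transcript. The first set shows, for the transcript of each paralog in the GENCODE annotation of GRCm38, the 78 coding bases from the hinge before the loop to the conserved stretch after it, 5′ to 3′, with capitals for bases that differ from Serpina1e.
Serpina1e: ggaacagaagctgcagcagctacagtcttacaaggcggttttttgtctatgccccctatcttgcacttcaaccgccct
Serpina1a: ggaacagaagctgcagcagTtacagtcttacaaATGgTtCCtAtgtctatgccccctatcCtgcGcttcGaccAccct
Serpina1b: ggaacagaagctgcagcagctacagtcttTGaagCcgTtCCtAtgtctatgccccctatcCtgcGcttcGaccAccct
Serpina1c: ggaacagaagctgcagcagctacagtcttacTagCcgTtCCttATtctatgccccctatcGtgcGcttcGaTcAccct
Serpina1d: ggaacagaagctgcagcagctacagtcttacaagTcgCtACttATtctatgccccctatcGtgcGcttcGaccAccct
Over these bases the paralogs were 84.6% (Serpina1a and Serpina1c), 85.9% (Serpina1b) and 87.2% (Serpina1d) identical to Serpina1e, against 95.7% to 96.5% over the whole aligned transcripts. Reads from part of each transcript can therefore fit several paralogs. Of all 50-base words in the annotated transcripts, 34.6% of those of Serpina1e also occurred in another gene, against 29.5% for Serpina1b, 50.9% for Serpina1d, 57.6% for Serpina1a and 74.2% for Serpina1c.

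The second set shows the same comparison for the DNA upstream of the 5 genes, from the RefSeq promoter windows (GRCm38.p6, minus strand), kept to the bases that all 5 windows share ahead of the start RefSeq gives each gene. None of the 5 stretches overlaps a GENCODE exon, and those of Serpina1b, Serpina1d and Serpina1e lie in an intron of a longer GENCODE transcript. The stretches are chr12:103956960-103957147 for Serpina1e, chr12:103863625-103863812 for Serpina1a, chr12:103738200-103738389 for Serpina1b, chr12:103904962-103905149 for Serpina1c and chr12:103773634-103773822 for Serpina1d.
Serpina1e: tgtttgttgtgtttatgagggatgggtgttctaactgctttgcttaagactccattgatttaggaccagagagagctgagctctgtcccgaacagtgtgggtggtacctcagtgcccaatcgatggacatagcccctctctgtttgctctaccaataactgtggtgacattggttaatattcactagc
Serpina1a: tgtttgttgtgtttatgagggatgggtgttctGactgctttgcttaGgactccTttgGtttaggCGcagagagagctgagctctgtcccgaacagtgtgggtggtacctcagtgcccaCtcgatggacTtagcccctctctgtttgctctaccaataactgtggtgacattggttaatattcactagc
Serpina1b: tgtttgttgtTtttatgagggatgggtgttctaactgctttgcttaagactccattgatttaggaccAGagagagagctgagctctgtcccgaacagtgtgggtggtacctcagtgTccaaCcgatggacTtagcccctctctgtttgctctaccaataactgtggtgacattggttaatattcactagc
Serpina1c: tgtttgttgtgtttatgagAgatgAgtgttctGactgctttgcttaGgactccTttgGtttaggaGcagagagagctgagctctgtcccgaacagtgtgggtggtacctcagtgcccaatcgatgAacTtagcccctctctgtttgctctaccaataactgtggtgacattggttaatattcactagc
Serpina1d: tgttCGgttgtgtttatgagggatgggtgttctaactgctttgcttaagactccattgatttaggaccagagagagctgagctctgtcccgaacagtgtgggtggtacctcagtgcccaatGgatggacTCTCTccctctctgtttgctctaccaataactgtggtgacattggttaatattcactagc
Serpina1a was 95.7%, Serpina1b 96.8%, Serpina1c 95.2% and Serpina1d 95.8% identical to Serpina1e here, with 8, 6, 9 and 8 differing positions. The letters TTCNNNGAA of STAT factors were found on either strand in 0 of 5 Serpina1 windows of 300 bases, 11 of 62 serpin windows and 8.30% of all 32851 windows. The FXR inverted repeat AGGTCANTGACCT was in 0 of the 62 serpin windows and in 3 windows in all. These searches cover only exact letters in these windows, and 53 of the 64 symbols had a window.

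By the deposited calls, the NASH diet lowered several abundant plasma serpins and raised other serpins. In the OCA vehicle group against lean control, 28 serpins were tested, of which 7 were called higher and 6 lower in the authors' deposited table, where 11.4% of all tested genes were higher and 6.56% lower. With the tropifexor vehicle, 8 of 30 were higher and 12 lower, against 12.1% and 8.53% of all tested genes. Genes higher in both vehicle groups included Serpina3g, Serpina4-ps1, Serpinb6b, Serpinb9 and Serpinh1, and those lower in both were Serpina1a, Serpina1c, Serpina6, Serpind1, Serpinf1 and Serpinf2 (6 genes). The 2 vehicle comparisons share the lean animals. All 65 serpins together made up 1.90% of the summed FPKM in lean liver and 1.47% and 1.43% in the OCA vehicle and tropifexor vehicle groups.

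The drugs moved different numbers of serpins. Under OCA against its vehicle, 0 of 30 tested serpins were called higher and 4 lower by Cuffdiff (8 in either direction at an unadjusted p under 0.05), against 1.81% and 2.23% of all tested genes. Under low-dose tropifexor against its vehicle, 2 of 30 were higher and 7 lower, against 6.03% and 5.2% of all tested genes. Under the mid dose 6 of 30 were higher and 8 lower, against 11.8% and 15.7%. Under the high dose 5 of 30 were higher and 11 lower, against 9.93% and 15.5%. The median log2 fold change of the tested serpins was -0.10 under OCA and -0.16, -0.16 and -0.32 under the low, mid and high doses, with medians of all tested genes between -0.05 and 0.00. Only Serpina1e and Serpina4-ps1 were lower under all 4 treatments, and Serpinb9 alone was higher under all 3 tropifexor doses. The 3 tropifexor comparisons share their vehicle animals.

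These counts take the deposited p as it stands. The deposited test statistic read as a normal score calls fewer serpins: 3, 7, 2, 3, 7 and 8 in the 6 comparisons in the order above. Under diet it calls 3 higher and 0 lower in the OCA vehicle group (6 in either direction at an unadjusted p under 0.05) and 4 higher and 3 lower with the tropifexor vehicle, the lower ones being Serpina1e, Serpina6 and Serpinb1a. Most diet decreases of plasma serpins are therefore called by the deposited p alone. Among the genes it calls under drug are Serpina1e and Serpina4-ps1 (OCA), these and Serpinb6b (low dose), Serpina1e, Serpina3g, Serpina4-ps1, Serpina5, Serpina7 and Serpinh1 (mid dose), and Serpina12, Serpina1c, Serpina1e, Serpina3n, Serpina4-ps1, Serpina7 and Serpinh1 (high dose).

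**Figure D1:**
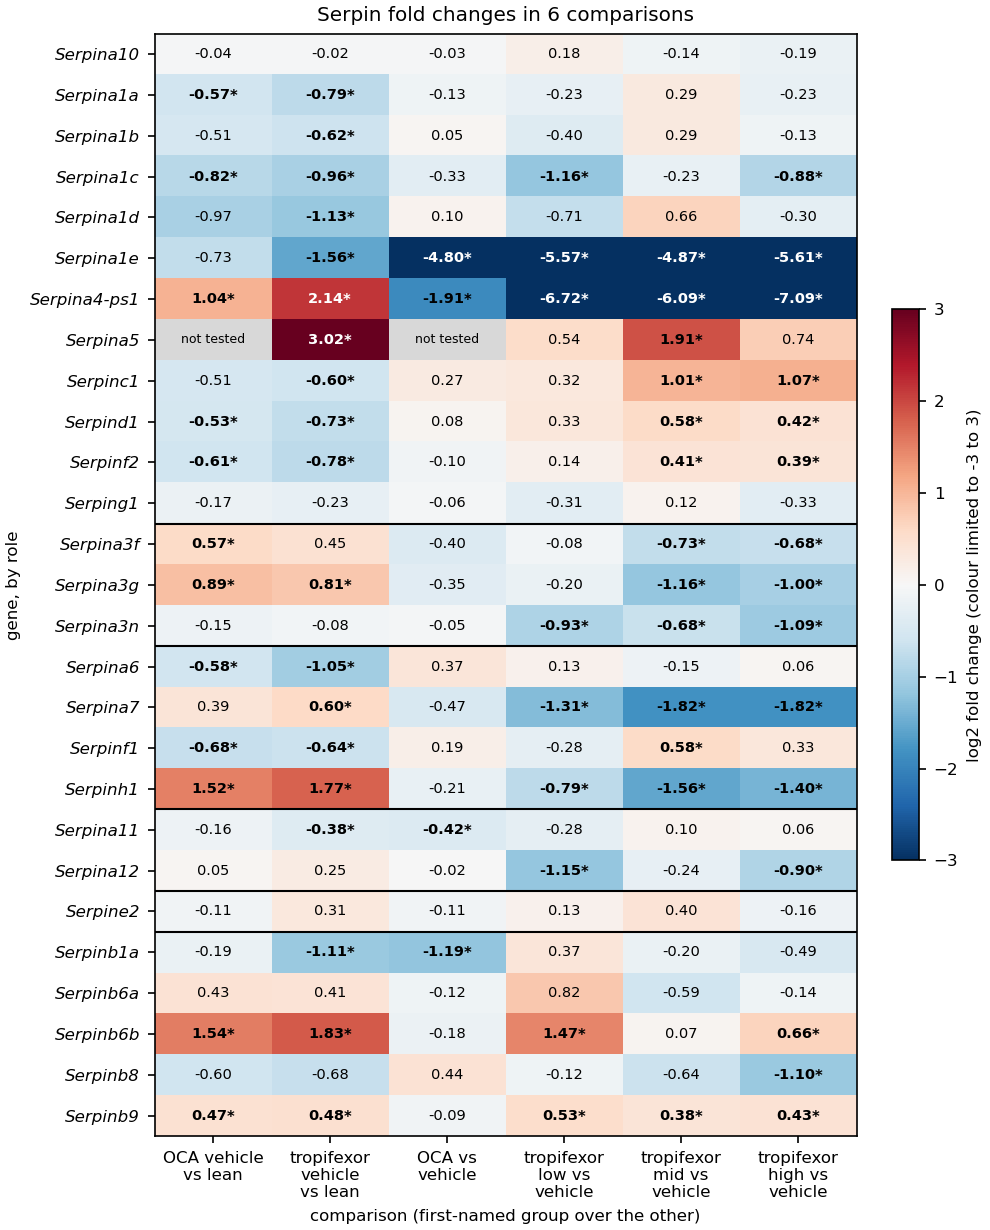
Log2 fold changes of 27 serpins that were tested and reached 1 FPKM in some group (rows, ordered by role) in the 6 comparisons (columns), with colour from blue (lower) to red (higher) limited to 3 on the log2 scale and bold values with an asterisk for genes called by the authors' deposited adjusted p. Serpina1e and Serpina4-ps1 are the 2 rows with called decreases in all 4 drug columns.

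Serpina1e (chr12:103946931-103958975) was the serpin with the largest fall under OCA. By the authors' tables, it stood at 564 FPKM in lean liver and 339 in the OCA vehicle group (log2 fold change -0.73, SE 0.27, not called), and at 567 and 192 FPKM in lean and tropifexor vehicle liver (-1.56, SE 0.16, Cuffdiff adjusted p = 0.000507). OCA took it from 364 to 13.1 FPKM, 27.8-fold lower (-4.80, SE 0.27, adjusted p = 0.00268 by Cuffdiff in the authors' table). The low dose of tropifexor took it from 219 to 4.62 FPKM (-5.57, SE 0.24), the mid dose from 191 to 6.53 (-4.87, SE 0.16) and the high dose from 198 to 4.07 (-5.61, SE 0.17), the last 48.8-fold lower. All 4 treated groups thus lay far below their vehicle. The 3 tropifexor values did not follow the order of the doses. Both adjusted p given here are the smallest of their comparison, where the lowest Cuffdiff p was 5e-05, so they do not rank the changes.

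The neighbours of Serpina1e behaved otherwise. Serpina1a, Serpina1b and Serpina1d were called in none of the 4 drug comparisons of the authors' deposited tables, with log2 fold changes from -0.71 (Serpina1d, low dose, SE 0.64) to 0.66 (Serpina1d, mid dose, SE 0.32). Serpina1c fell from 1035 to 464 FPKM at the low dose (-1.16, SE 0.23) and from 940 to 511 at the high dose (-0.88, SE 0.14), while at the mid dose it was 903 and 771 FPKM (-0.23, SE 0.15, not called). All 4 fell in the tropifexor vehicle group against lean control, with log2 fold changes of -0.79 (Serpina1a), -0.62 (Serpina1b), -0.96 (Serpina1c) and -1.13 (Serpina1d). In the OCA vehicle group Serpina1a (-0.57) and Serpina1c (-0.82) were called lower. Serpina1b (-0.51) and Serpina1d (-0.97) were also lower there and were not called.

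Because reads may be shared, the cluster was also summed. The summed FPKM of Serpina1a to Serpina1e was 6982 in lean and 4307 in OCA vehicle liver, a log2 ratio of -0.70, and the log2 ratio of the tropifexor vehicle was -0.87. Against vehicle the log2 ratio of the sum was -0.15 under OCA, -0.67 at the low dose, 0.19 at the mid dose and -0.40 at the high dose. The sum thus changed far less than Serpina1e. The share of Serpina1e in the sum was 8.08% in lean, 7.88% in OCA vehicle and 5.0% in tropifexor vehicle liver, and 0.317% under OCA and 0.168%, 0.150% and 0.135% under the low, mid and high doses. Serpina1b held the largest share, 38.8% in lean and 55.9% in high-dose liver. Sums come from group values and have no test.

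**Figure D2:**
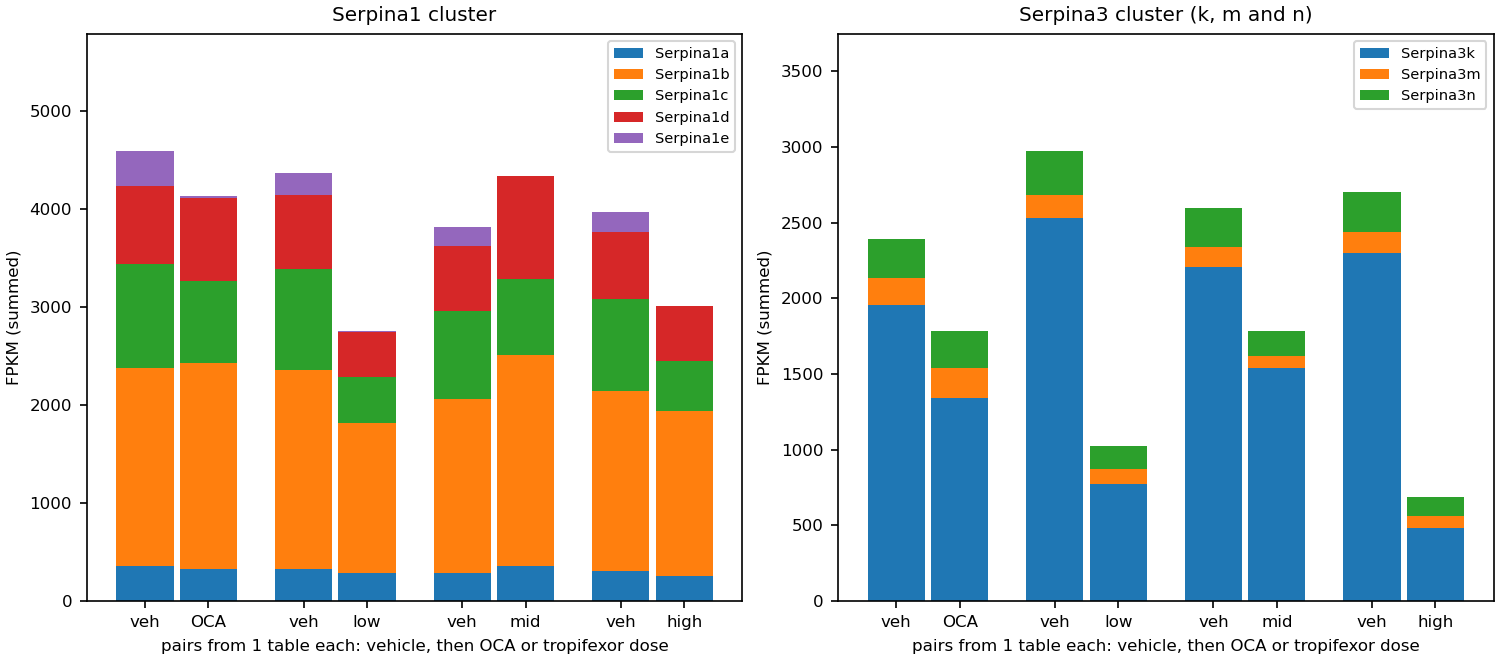
Stacked FPKM of the 5 Serpina1 paralogs (left) and of Serpina3k, Serpina3m and Serpina3n (right), each pair of bars being vehicle and drug group of 1 deposited table. The Serpina1e segment is visible in every vehicle bar and too thin to see in every drug bar, and the Serpina3 bars fall most against vehicle at the low and high doses.

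Serpina4-ps1 (chr12:104080649-104086724) is annotated as an unprocessed pseudogene. Its human counterpart encodes kallistatin, an inhibitor of tissue kallikrein. The transcript rose under diet from 4.80 to 9.85 FPKM in the OCA vehicle group (log2 fold change 1.04, SE 0.18) and from 4.82 to 21.2 in the tropifexor vehicle group (2.14, SE 0.16). OCA lowered it from 10.6 to 2.82 FPKM (-1.91, SE 0.20, adjusted p = 0.00268 by Cuffdiff in the authors' table, the smallest there). Tropifexor lowered it from 24.3 to 0.230 FPKM at the low dose (-6.72, SE 0.39), from 21.2 to 0.311 at the mid dose (-6.09, SE 0.28) and from 22.0 to 0.161 at the high dose (-7.09, SE 0.37), which is 105-fold, 67.9-fold and 137-fold lower. Diet and drug therefore moved this transcript in opposite directions. The OCA group and all 3 tropifexor groups were called lower than lean control. None of its annotated 50-base words occurred in another gene. Its FPKM in the tropifexor groups were near or below the 0.239 that bounded the serpins too low to test. The size of its falls under tropifexor is therefore uncertain.

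**Figure D3:**
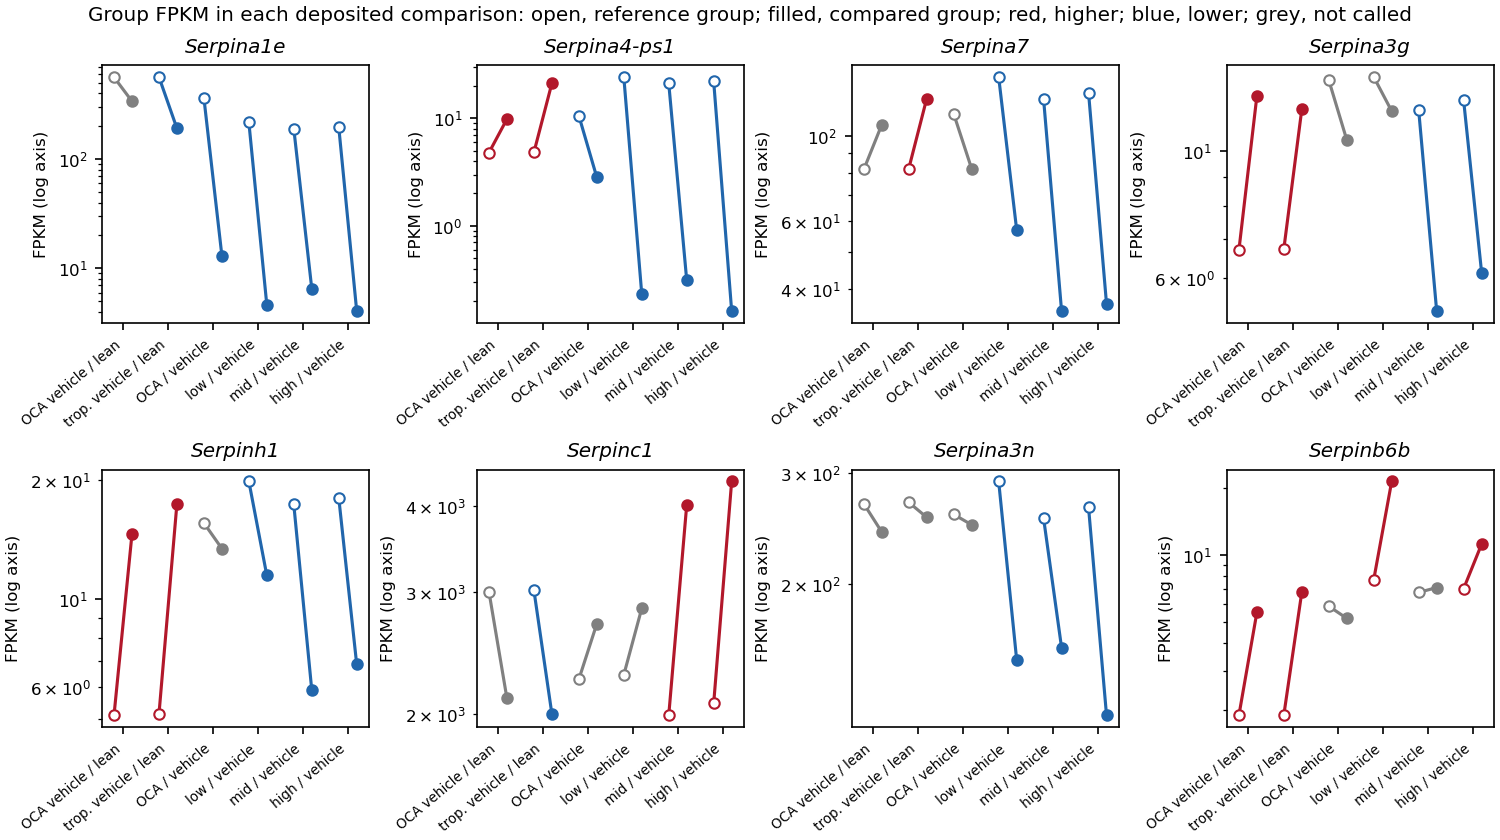
FPKM on log axes of 8 serpins in the 6 comparisons, with the reference group as an open circle and the compared group as a filled one, joined by a line that is red where the deposited call was higher, blue where it was lower and grey where there was no call. Serpina1e drops in all 4 drug pairs, and Serpina3g is called lower in the mid-dose and high-dose pairs alone.

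Of the 12 plasma inhibitors, with 11 or 12 tested, 1 was higher and 4 lower in the OCA vehicle group (11.4% and 6.56% of all tested genes) and 2 and 8 with the tropifexor vehicle (12.1% and 8.53%). Under OCA 0 were higher and 2 lower (1.81% and 2.23%), at the low dose 0 and 3 (6.03% and 5.2%), at the mid dose 4 and 2 (11.8% and 15.7%) and at the high dose 3 and 3 (9.93% and 15.5%). Of 5 hepatocyte markers tested beside them, 0 and 2 were called lower in the OCA and tropifexor vehicle groups. Their median log2 fold changes under diet were -0.52 and -0.53, beside -0.53 and -0.67 for the plasma inhibitors. The summed FPKM of those markers went from 74918 to 49282 and from 75308 to 45309, and their part in the serpin values was not tested. The list holds the Serpina1 paralogs and Serpina4-ps1 described above, and Serpinc1, Serpind1 and Serpinf2 were its members that fell in the tropifexor vehicle group and rose at both the mid and the high dose. Serpinc1 is antithrombin, which inhibits thrombin and factor Xa with heparin as cofactor. In the authors' deposited tables it was 3004 FPKM in lean and 2105 in OCA vehicle liver (log2 fold change -0.51, SE 0.27, not called), and 3020 and 1998 FPKM in lean and tropifexor vehicle liver (-0.60, SE 0.17). It rose from 1990 to 4016 FPKM at the mid dose (1.01, SE 0.18) and from 2071 to 4346 at the high dose (1.07, SE 0.18), above lean liver in both (0.41 and 0.46). Under OCA (0.27, SE 0.28) and the low dose (0.32, SE 0.30) it was not called. Its locus in the file also holds Gas5 and Zbtb37.

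Serpind1 is heparin cofactor II, a thrombin inhibitor. By the authors' tables, it fell under diet from 354 to 245 FPKM (log2 fold change -0.53, SE 0.19) and from 356 to 214 (-0.73, SE 0.15) in the OCA and tropifexor vehicle groups, and it rose by 0.58 (SE 0.16) at the mid dose and 0.42 (SE 0.15) at the high dose. Serpinf2, the alpha-2-antiplasmin that inhibits plasmin, moved likewise: its log2 fold changes were -0.61 (SE 0.18) and -0.78 (SE 0.14) under diet, both called lower, and it rose by 0.41 (SE 0.14) and 0.39 (SE 0.14) at the mid and high doses. Against lean control, Serpinf2 was lower at both doses (-0.37 and -0.40), while Serpind1 was not called at the mid dose (-0.16) and was lower at the high dose (-0.33).

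Serpina10, which inhibits factor Xa together with protein Z, stood between 85.3 and 132 FPKM in every group of the authors' deposited tables and was called in none of 10 comparisons. Serping1, the C1 inhibitor of complement and contact activation, was called in none of the 6 main comparisons (504 to 817 FPKM in all groups) and was lower at the high dose against lean control (log2 fold change -0.58, SE 0.12). Serpina5, the protein C inhibitor, was scarce: it rose from 0.0375 to 0.304 FPKM in the tropifexor vehicle group (3.02, SE 0.50) and from 0.303 to 1.14 at the mid dose (1.91, SE 0.25), and it was too low to be tested in both OCA tables.

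The Serpina3 cluster encodes relatives of alpha-1-antichymotrypsin, an acute-phase inhibitor. Of its 11 members 3 or 4 were tested. Of these 2 and 1 rose in the OCA and tropifexor vehicle groups, against 11.4% and 12.1% of all tested genes. At the low, mid and high doses 1, 3 and 3 fell, against 5.2%, 15.7% and 15.5%. Serpina3k, its most abundant member, was listed at 2905 FPKM in lean and 1832 in OCA vehicle liver, and at 2920 and 2214 in lean and tropifexor vehicle liver, in the authors' deposited tables. It was listed at 1958 and 1343 FPKM without and with OCA. At the low dose it was 2529 in vehicle and 771 in treated liver, at the mid dose 2206 and 1538, and at the high dose 2297 and 480. The fall against vehicle was thus smaller at the mid dose than at the low or the high dose, and none of these values has a test. Serpina3m was listed at 155 and 101 FPKM at the low dose, 136 and 83.4 at the mid dose and 141 and 81.6 at the high dose, and 177 and 194 under OCA, where Serpina3k was lower and Serpina3m higher than in vehicle. The file places Serpina3k and Serpina3m in one locus.

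Serpina3n, which was tested, fell at each tropifexor dose in the authors' deposited tables, from 291 to 152 FPKM at the low dose (log2 fold change -0.93, SE 0.20), 254 to 159 at the mid dose (-0.68, SE 0.14) and 264 to 124 at the high dose (-1.09, SE 0.13). It was not called under diet (-0.15 and -0.08) or OCA (-0.05, SE 0.16). Serpina3g, an inhibitor of cysteine cathepsins in leukocytes, rose under diet from 6.71 to 12.5 FPKM (0.89, SE 0.16) and from 6.74 to 11.8 (0.81, SE 0.18), and fell to 5.25 FPKM at the mid dose (-1.16, SE 0.17) and 6.13 at the high dose (-0.998, SE 0.17). Serpina3f showed the same calls in the OCA vehicle group (0.57, SE 0.16) and at the mid and high doses (-0.73 and -0.68). The summed Serpina3 FPKM gave log2 ratios of -0.61 and -0.40 under diet and -0.42, -1.53, -0.55 and -1.97 under OCA and the low, mid and high doses. Without Serpina3k the ratios under drug were 0.01, -0.79, -0.70 and -0.98, so the OCA value rests on that gene.

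The 2 hormone carriers moved apart with the diet. Serpina6 is the corticosteroid-binding globulin. It fell from 297 to 199 FPKM in the OCA vehicle group (log2 fold change -0.58, SE 0.14) and from 299 to 145 in the tropifexor vehicle group (-1.05, SE 0.13), and no drug comparison called it, the largest being 0.37 (SE 0.15) under OCA. Serpina7, the thyroxine-binding globulin on chromosome X, was at 81.7 and 107 FPKM in lean and OCA vehicle liver (0.39, SE 0.24, not called) and rose from 82.1 to 125 in the tropifexor vehicle group (0.60, SE 0.22). It fell at each tropifexor dose, from 142 to 57.1 FPKM at the low dose (-1.31, SE 0.28), 124 to 35.1 at the mid dose (-1.82, SE 0.22) and 129 to 36.7 at the high dose (-1.82, SE 0.21). At the mid and high doses it was also below lean liver (-1.23 at both). Under OCA it was 114 and 82.0 FPKM (-0.47, SE 0.24, not called).

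Serpinf1, the pigment epithelium-derived factor, fell under diet from 760 to 473 FPKM and from 764 to 490 in the authors' deposited tables (log2 fold changes -0.68, SE 0.18, and -0.64, SE 0.16). It rose at the mid dose from 488 to 731 FPKM (0.58, SE 0.16), and was not called at the high dose (0.33, SE 0.16) or under the other treatments.

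Serpinh1 encodes the collagen chaperone of the endoplasmic reticulum. In the authors' deposited tables it rose under diet from 5.10 to 14.6 FPKM (log2 fold change 1.52, SE 0.13) and from 5.12 to 17.5 (1.77, SE 0.14). It fell from 19.9 to 11.5 FPKM at the low dose (-0.79, SE 0.18), 17.4 to 5.90 at the mid dose (-1.56, SE 0.14) and 18.1 to 6.85 at the high dose (-1.40, SE 0.14), and was 15.6 and 13.4 under OCA (-0.21, SE 0.13, not called). At the mid dose it did not differ from lean liver by the deposited test (0.20, SE 0.13). Of the 5 fibrillar collagen genes whose products it folds, 5 rose in each vehicle group (11.4% and 12.1% of all tested genes). At the low dose 4 fell and at each of the mid and high doses 5 fell (5.2%, 15.7% and 15.5%). Under OCA their median log2 fold change was -0.03. Col1a1 changed most of the 5, from 13.6 to 2.09 FPKM at the high dose (-2.70). The medians were 2.00 and 2.45 in the OCA and tropifexor vehicle groups and -1.31, -2.35 and -2.22 at the low, mid and high doses. Their summed FPKM was 134 in vehicle and 45.5 in low-dose liver, and 122 and 21.7 at the high dose.

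Markers of stellate cells and myofibroblasts, the collagen-making cells of liver, are given beside Serpinh1. Of 8 such markers, 3 and 4 rose in the OCA and tropifexor vehicle groups in the authors' deposited tables (11.4% and 12.1% of all tested genes). Under OCA 1 rose (1.81%), and 3, 7 and 7 fell at the low, mid and high doses (5.2%, 15.7% and 15.5%). The summed FPKM of the 8 markers was 163 in lean and 245 in OCA vehicle liver. It was 164 and 266 with the tropifexor vehicle, and 261 and 229 without and with OCA. Against vehicle it was 303 and 350 at the low dose, 265 and 129 at the mid dose and 275 and 162 at the high dose. The median log2 fold changes of the markers were -0.47, -1.15 and -1.07 at these doses. At the low dose the sum thus rose while the median marker fell, with 0 markers called higher and 3 lower. What part of the Serpinh1 change goes with these cells was not tested.

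Serpine2, the protease nexin 1, stood in the authors' deposited tables between 6.31 and 12.1 FPKM in all groups and was called once in 10 comparisons, higher at the mid dose against lean control (0.71, SE 0.20).

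The proteases that serpins hold in check were read from a list of 23 genes, of which 21 or 22 were tested. In the authors' deposited tables the OCA vehicle group had 4 higher and 6 lower, the tropifexor vehicle 4 and 9, OCA 0 and 2, the low dose 2 and 1, the mid dose 7 and 5 and the high dose 4 and 3. Of all tested genes, 11.4% and 6.56%, 12.1% and 8.53%, 1.81% and 2.23%, 6.03% and 5.2%, 11.8% and 15.7%, and 9.93% and 15.5% were higher and lower in these comparisons, in the same order. Both plasminogen activators changed. Plau (urokinase) rose from 1.12 to 3.02 FPKM in the tropifexor vehicle group (log2 fold change 1.43) and fell at the mid (-1.72) and high (-1.57) doses. Plat (tissue-type activator) rose in the same group from 0.285 to 2.00 FPKM (2.81), rose at the low dose (0.75), fell at the mid dose (-2.03) and was not called at the high dose (-0.45). Prtn3 (proteinase 3 of neutrophils) had the largest called changes of the list, from 2.08 to 0.158 FPKM at the mid dose (-3.72) and from 2.17 to 0.137 at the high dose (-3.98). The receptor gene Plaur rose by 1.55 with the diet and 0.95 at the low dose, and fell by 1.68 at the mid dose and 1.25 at the high dose on the log2 scale. Among the clotting enzymes, F10 fell with the diet (-0.52 and -0.53) and rose at the mid and high doses (0.61 and 0.45), as Serpinc1 did at those doses. The plasma prekallikrein gene Klkb1 likewise fell by 0.78 and 0.99 and rose by 1.08 and 0.95.

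Of 9 cofactors and clearance receptors of serpins, 8 were tested. Higher and lower calls numbered 2 and 2 in the OCA vehicle group, 1 and 3 with the tropifexor vehicle, 2 and 1 at the low dose, 4 and 2 at the mid dose and 3 and 2 at the high dose, and under OCA their median log2 fold change was 0.06. The shares of all tested genes are those given beside the proteases. Vldlr, a lipoprotein receptor that also binds complexes of serpins with proteases, fell from 1.28 to 0.0412 FPKM at the mid dose (log2 fold change -4.95) and from 1.46 to 0.230 at the low dose (-2.67). Asgr2, a subunit of the asialoglycoprotein receptor, rose at all 3 doses (0.61, 1.24 and 1.37). Proz, the protein Z cofactor of Serpina10, fell with the diet (-0.37 and -0.53) and rose at the mid dose (0.50).

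Regulators of serpin transcription and of the acute phase were a list of 16, with 15 tested. Higher and lower calls of the authors' tables numbered 3 and 1 in the OCA vehicle group, 4 and 3 with the tropifexor vehicle, 1 and 0 under OCA, 2 and 2 at the low dose, 5 and 5 at the mid dose and 3 and 6 at the high dose. The shares of all tested genes, higher and lower, were 11.4% and 6.56%, 12.1% and 8.53%, 1.81% and 2.23%, 6.03% and 5.2%, 11.8% and 15.7%, and 9.93% and 15.5% in that order. Nr1h4, which encodes FXR, fell at each tropifexor dose (log2 fold changes -1.49, -1.27 and -1.70) and was not called under OCA (-0.16). Il1r1, the receptor for interleukin 1, was called higher in all 6 comparisons, from 0.39 in the tropifexor vehicle group to 1.52 at the high dose. Stat3, the transducer of interleukin 6 signals, fell at the mid (-0.53) and high (-0.85) doses, and Socs3, which damps that pathway, rose at all 3 doses (1.30, 1.64 and 1.54). Il6 itself was at most 0.0765 FPKM in these 6 tables and was not tested. Hnf4a rose at the mid (1.13) and high (0.80) doses and Cebpa fell at each dose (-1.14, -0.56 and -1.11).

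Among the remaining clade A genes, Serpina12 (vaspin, an inhibitor of tissue kallikrein 7 made mainly in fat and liver) was not called under diet in the authors' deposited tables and fell from 31.3 to 14.1 FPKM at the low dose (log2 fold change -1.15, SE 0.20) and from 28.4 to 15.2 at the high dose (-0.90, SE 0.13). At the mid dose it was 27.3 and 23.1 FPKM (-0.24, SE 0.13, not called). Serpina12, Serpina1c and the untested Serpina3k thus shared a mid-dose group closer to vehicle than the low-dose and high-dose groups. The called falls of Serpina1e, Serpina3n and Serpina4-ps1 were likewise smallest at the mid dose. This grouping was made after the values were seen, and the mid and high doses were not tested against each other. Serpina11 fell in the tropifexor vehicle group (-0.38, SE 0.14) and under OCA, from 50.2 to 37.5 FPKM (-0.42, SE 0.13), and was not called under tropifexor.

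Clade B serpins act inside cells, many of them leukocytes. Of the 26 clade B symbols 5 or 6 were tested in a table. In the OCA and tropifexor vehicle groups 2 and 2 of these rose (11.4% and 12.1% of all tested genes) and 0 and 1 fell (6.56% and 8.53%). Under OCA 1 fell (2.23%). At the low, mid and high doses 2, 1 and 2 rose (6.03%, 11.8% and 9.93%), and 1 fell at the high dose (15.5%). Serpinb6b was the member that rose most at the low dose. It rose under diet from 1.90 to 5.51 FPKM (log2 fold change 1.54, SE 0.15) and from 1.91 to 6.81 (1.83, SE 0.17), then from 7.73 to 21.4 FPKM at the low dose (1.47, SE 0.19) and from 7.04 to 11.2 at the high dose (0.66, SE 0.14). It was 6.77 and 7.12 FPKM at the mid dose (0.07, SE 0.15) and 5.87 and 5.18 under OCA (-0.18, SE 0.14), neither called. Serpinb9, the inhibitor of granzyme B, rose under diet (0.47 and 0.48, SE 0.13 and 0.14) and at each tropifexor dose (0.53, 0.38 and 0.43). Its target Gzmb rose under diet (1.53 and 0.78) and fell under OCA (-1.57) and at the mid dose (-1.28).

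Serpinb1a, an inhibitor of neutrophil elastase and cathepsin G, was one of the 4 serpins called under OCA, falling from 3.63 to 1.59 FPKM (log2 fold change -1.19, SE 0.17) in the authors' deposited table. It had fallen under diet in the tropifexor vehicle group, from 3.92 to 1.82 FPKM (-1.11, SE 0.17), and not in the OCA vehicle group (-0.19, SE 0.15). Serpinb8 fell at the high dose from 4.47 to 2.08 FPKM (-1.10, SE 0.41). Serpinb6a, between 11.7 and 38.1 FPKM, was called in none of 10 comparisons, with SE values of 0.38 to 0.55.

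Markers of leukocytes also moved with diet and drug. Among all tested genes, 11.4% and 12.1% were called higher in the OCA and tropifexor vehicle groups, and 6.56% and 8.53% lower. The shares called lower under OCA and the low, mid and high doses were 2.23%, 5.2%, 15.7% and 15.5%. Those called higher under OCA and the low dose were 1.81% and 6.03%. These shares stand beside all marker lists that follow. By the deposited calls, 7 of 9 macrophage markers rose and 1 fell with the OCA vehicle, 6 rose and 1 fell with the tropifexor vehicle, and 5, 1, 7 and 5 fell under OCA and the low, mid and high doses. Their summed FPKM was 164 in lean and 305 in OCA vehicle liver and 324 and 212 without and with OCA. Against vehicle it was 325 and 248 at the low dose, 284 and 147 at the mid dose and 296 and 193 at the high dose. Of 8 T and NK cell markers, 6 to 8 tested, 5 and 4 rose in the vehicle groups and 5, 0, 5 and 4 fell under OCA and the low, mid and high doses. Of 7 neutrophil markers, 3 or 4 tested, 2 and 1 rose in the vehicle groups and 2 fell at the mid dose. Serpina3g was called in the direction of most macrophage markers in both vehicle groups and at the mid and high doses. Under OCA, where 5 of 9 macrophage markers fell, it was not called (log2 fold change -0.35). Serpinb6b and Serpinb9 rose at the low and high doses, where no macrophage marker was called higher. The part of these cells in the serpin values was not tested. Of 7 endothelial markers 2 fell in each vehicle group and under OCA, and 1, 4 and 4 fell at the low, mid and high doses. Of 6 bile duct markers 2 rose and 1 fell in each vehicle group, 2 and 4 rose under OCA and the low dose, and 2 and 1 fell at the mid and high doses. Of 4 platelet markers, 2 or 3 tested, 1 rose in each vehicle group and 1 fell at the mid and high doses. Of 6 hepatocyte markers 5 were found in the tables, and of these 2 fell in the tropifexor vehicle group and 1, Ttr, at each tropifexor dose.

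Set against lean control, more serpins were called lower than higher in each of the 4 treated groups. By the deposited calls, 5 of 27 tested serpins were higher and 10 lower under OCA, where 10.3% of all tested genes were higher and 6.5% lower. At the low dose 6 of 29 were higher and 13 lower, against 13.8% and 10.1% of all tested genes. At the mid dose 5 of 28 were higher and 10 lower, against 11.7% and 11.5%. At the high dose 5 of 28 were higher and 16 lower, against 12.2% and 15.2%. The share of all serpins in the summed FPKM was 1.37% under OCA and 1.15%, 1.46% and 1.12% at the low, mid and high doses, against 1.90% in lean liver. Serpina1e was 45.8-fold lower than lean under OCA and 146-fold lower at the high dose. Serpinb6b was 2.57-fold higher under OCA and 9.84-fold, 3.72-fold and 5.58-fold higher at the low, mid and high doses.

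The effects of the treatments were then compared with each other, as the difference of 2 log2 fold changes with a 95% interval. The doses of OCA and tropifexor are not matched, so a difference describes these dose groups. With the standard error implied by the deposited test statistic, 2 of 29 serpins differed between high-dose tropifexor and OCA, against 1.69% of all genes. Serpina4-ps1 differed by -5.19 (interval -6.86 to -3.52), lower under tropifexor, by a normal test with Benjamini-Hochberg adjustment over all genes. Its FPKM under tropifexor was near the floor, so the size of that difference is uncertain. With the rescaled error, which is 2.03 to 2.05 times narrower, 10 of 29 differed, against 11.4% of all genes, adding Serpina12, Serpina3g, Serpina3n, Serpina7, Serpinb6b, Serpinb8, Serpinb9 and Serpinh1. The fall of Serpina1e was not called as different between the high dose and OCA. The difference was -0.81 (-2.09 to 0.47 with the implied error). With the rescaled error the interval was -1.44 to -0.18, and the same normal test gave an adjusted p of 0.0861.

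**Figure D4:**
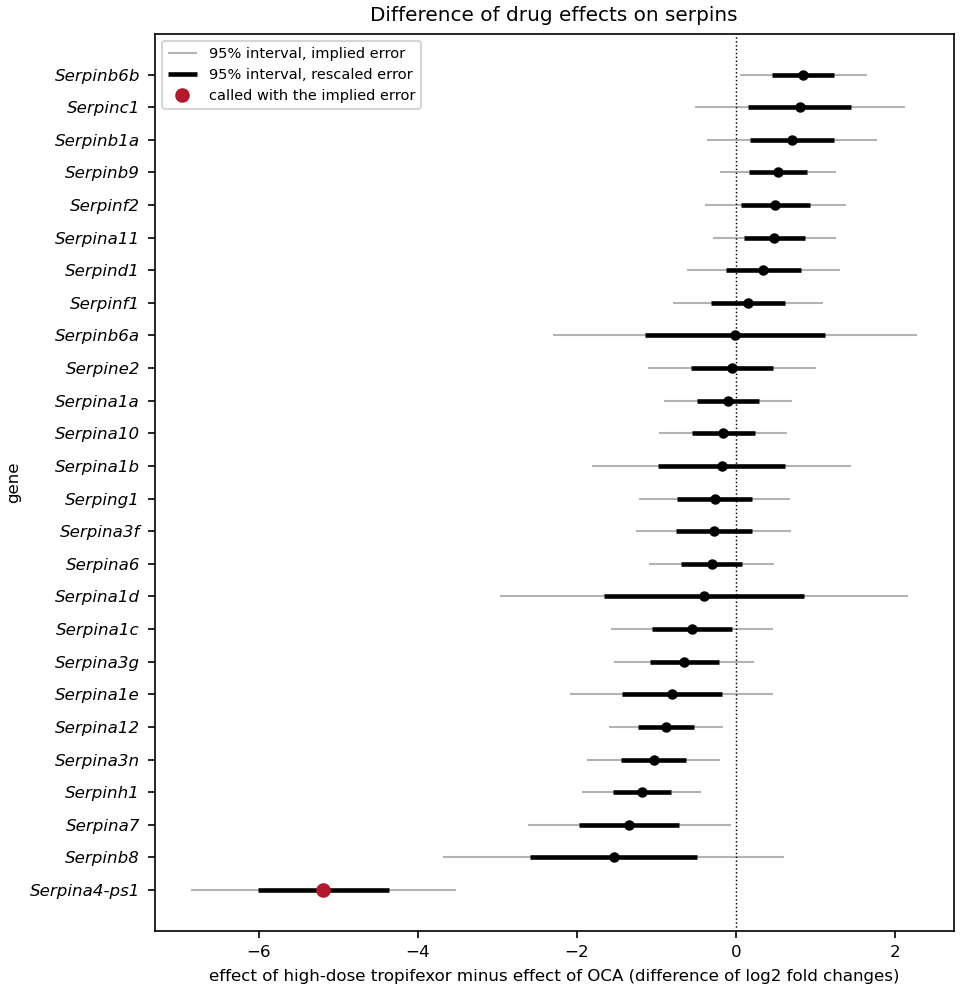
Difference between the log2 fold changes of high-dose tropifexor and OCA, each against its vehicle, for serpins that reached 1 FPKM, with grey and black lines for 95% intervals from the implied and the rescaled error and a red point for a gene called with the implied error. Serpina4-ps1 is the red point, at -5.19.

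Between the high and the low dose of tropifexor 1 of 30 serpins differed, against 0.278% of all genes. With the rescaled error 2 of 30 differed, against 5.63% of all genes, among them Serpinb6b at -0.80. Between the mid and the low dose, a comparison added after the data were seen, 1 of 30 differed, against 0.423% of all genes, and 8 of 30 with the rescaled error, against 10.3%. Those 8 included Serpina1c (0.93) and Serpina12 (0.91), which had fallen less at the mid dose. Between the mid dose and OCA, also added after the data were seen, 3 of 29 differed, against 1.48% of all genes, among them Serpina4-ps1 at -4.18 and Serpinh1 at -1.34. With the rescaled error 7 of 29 differed, against 12% of all genes.

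The diet effects of the 2 vehicle groups differed for 0 of 27 serpins with the implied error (2 at an unadjusted p under 0.05 in the same normal test), against 0.0985% of all genes. With the rescaled error 2 differed, against 0.381% of all genes: Serpinb1a fell further in the tropifexor vehicle group, by -0.91 (-1.35 to -0.47), and Serpina4-ps1 rose further there, by 1.10 (0.63 to 1.57). Serpinc1 was called in the tropifexor vehicle group alone, and its diet effects were not shown to differ (-0.08, -1.35 to 1.19).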

How the data were processed

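Poly(A) RNA of 28 livers was sequenced from stranded libraries. Per the submitters' processing notes, bcl2fastq, STAR 2.5.1b, Cufflinks 2.2.1, Cuffnorm, Cuffdiff and the build GRCm38 were used, and their order and the use of strand in counting are not given in the sources used here. The authors deposited 10 Cuffdiff tables, each with 1 FPKM per group, a log2 fold change and a test statistic (both read as a score without a fixed range), a p-value and a q-value, per the file headers. FPKM of 1 group differed between tables by a constant of up to 0.194 on the log2 scale, so tests and fold changes were taken only within a table, and levels of different tables set side by side can be off by that constant. Single-animal values and read depth are unknown. Cuffdiff tested 15208 to 16144 genes per table, and FPKM sums of a group lay between 706031 and 915996.

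A call needed a completed test and a q-value under 0.05. The SE was the ratio of log2 fold change to test statistic, divided by the ratio of the normal score of the deposited p to that statistic (2.03 to 2.05), and the implied SE omits that division. No sample was dropped or imputed here. Differences of 2 effects were tested with a normal test on the implied SE, adjusted over all genes usable in both tables. All computations used Python 3.11.15, numpy 2.4.6, pandas 2.3.3 and scipy 1.17.1, figures matplotlib 3.10.9 and alignments Biopython 1.88. The difference test was tried on simulated effects with independent noise drawn from the rescaled SE. That trial left out the sharing of animals between comparisons, and its pass criteria covered the rescaled SE alone. Replicates are separate mice by the labels. The members and gene lists were chosen with earlier results of these data known. By the rule for named genes, a serpin was described when it was called in at least 1 of the 6 comparisons of vehicle with lean or drug with vehicle, or reached 100 FPKM in any group, and genes of the other lists were named by the largest called change. Serpine2, Serpinb6a and further genes of those lists were chosen after their values were seen. Alternatives were a stricter q-value of 0.01, a filter at 1 FPKM, a pseudocount of 1, centring on the median gene, the normal p of the test statistic and the rescaled SE. Some items are not reported here, and counts over all serpins include them.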

Additional observations from a re-analysis of the deposited data

Results flagged for a closer look

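The results here are serpins whose log2 fold changes differed between 2 treatments by a test of the difference itself, with the implied error and adjustment over all genes. Between the high dose of tropifexor and OCA, the difference was -5.19 for Serpina4-ps1, lower under tropifexor. Between the mid dose and OCA, it was -4.18 for Serpina4-ps1 and -1.34 for Serpinh1. Serpina4-ps1 was near the floor of FPKM under tropifexor, so the size of its differences is uncertain. The comparison with the mid dose was added after seeing the data. The tropifexor comparisons share 1 vehicle group, and doses of the 2 compounds were not matched.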

How the results depend on the processing

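No paired analysis was possible because the tables hold 1 value per group, and for the same reason leaving out a replicate and exact tests over animals could not be run. With a q-value under 0.01, and with the filter at 1 FPKM, the number of serpins called stayed within 1.5 times in all 10 comparisons. With the normal p of the deposited statistic the number called was 3 in the OCA vehicle and 7 in the tropifexor vehicle group against lean, 2 under OCA and 3, 7 and 8 at the low, mid and high doses against vehicle. Against lean it was 6 under OCA, 6 at the low dose and 12 at the high dose, and 10 at the mid dose, which was within 1.5 times. This p is larger than the deposited one by construction of its wider error. With the rescaled error the number of serpins that differed was 10 for high dose against OCA, 2 for high against low dose and 2 for the diet effect of the 2 vehicle groups. A pseudocount added to both groups cannot reverse the direction of a fold change. With a pseudocount of 1, 24 of 154 fold changes of described serpins moved by more than their SE. Centring subtracts the median of all tested genes, which lay between -0.05 and 0.02. That shift is smaller than the SEs given above, so 0 of 154 moved by construction. Of the cluster sums, 4 of 6 Serpina3 ratios moved without Serpina3k, while 0 of 6 Serpina1 ratios moved without Serpina1e. When the median member replaced the sum, 5 of 12 ratios moved. The log2 ratio of the Serpina3 sum changed sign under OCA, from -0.42 to 0.01 without Serpina3k. With the median member it changed sign in the OCA vehicle group (-0.61 to 0.57) and the tropifexor vehicle group (-0.40 to 0.45). Serpins that stayed at or below 0.239 FPKM could not be tested at this depth.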
